A study of Mus musculus with 6 samples.

Results

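Cone bipolar cells marked by Slit2, Irx6 and Zfhx4 were examined in single-cell RNA-sequencing libraries of mouse retina with and without oxygen-induced retinopathy (OIR). The cells were selected on measured values. Among barcodes with 500 to 5000 detected genes and at most 20% mitochondrially encoded UMIs (unique molecular identifiers, counted as RNA molecules), a member had at least 3 of the 5 genes Slit2, Irx6, Zfhx4, Cdh8 and Cntnap5a detected. It also had 0 UMIs of Sebox, Fezf2, Tfap2b and Arr3, which mark rod bipolar cells, another cone bipolar class, amacrine cells and cones. The rule took 366 of the 38569 barcodes kept, out of 47631 barcodes in the files.

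OIR is a mouse model of proliferative retinopathy, in which high oxygen halts the growth of retinal vessels in pups and the return to room air leaves the poorly perfused retina short of oxygen. The 3 OIR samples came from pups kept in 75% oxygen from postnatal day 7 to day 12 and then in room air for 5 days, and the 3 control samples (Ctrl) came from pups kept in room air. All retinas were taken at postnatal day 17, and each sample pooled the retinas of 2 mice, so that single animals cannot be told apart. Strain, genotype and sex are not in the sample labels. Xist, the RNA of the inactive X chromosome, was at 1798 and 1998 CPM (counts per 1000000 UMIs) over all kept barcodes of Ctrl replicates 2 and 3 and below 1 CPM in the other 4 samples, so sex and treatment were partly confounded. Summed over members, OIR replicates 1, 2 and 3 gave 774033, 201999 and 282232 UMIs, and the controls gave 1083825, 76791 and 104738. Triplets of values below run over replicates 1, 2 and 3 of a group. The thinnest sums, of Ctrl replicates 2 and 3, therefore rested on 11 and 18 cells.

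Bipolar cells carry the signal of photoreceptors to amacrine and ganglion cells through ribbon synapses. Cone bipolar cells fall into OFF types, which respond through ionotropic glutamate receptors, and ON types, in which the receptor encoded by Grm6 closes the Trpm1 channel, and each type ends at its own depth of the inner plexiform layer. Slit2 encodes a secreted guidance ligand of Robo receptors, Irx6 and Zfhx4 encode homeodomain transcription factors, Cdh8 a cadherin, Cntnap5a a contactin-associated membrane protein and Scgn the calcium-binding protein secretagogin.

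In GRCm38, to which all gene positions here refer, the selecting genes lie at chr5:47983138-48307733 (Slit2, plus strand), chr8:92674288-92680956 (Irx6, plus strand), chr3:5218526-5415857 (Zfhx4, plus strand), chr8:99024471-99416471 (Cdh8, minus strand) and chr1:115684756-116587323 (Cntnap5a, plus strand). Of the 366 members, 357 had a UMI of Zfhx4, 324 of Slit2, 316 of Cdh8, 234 of Irx6 and 130 of Cntnap5a. Exactly 3 of the 5 genes were detected in 180 members, 4 in 109 and all 5 in 77. The commonest set of exactly 3 was Slit2, Zfhx4 and Cdh8, in 93 members, and 82 more carried these with Irx6. Just outside the threshold, 244 barcodes had 2 of the genes, and 195 of them had at least 3 of 10 genes shared by bipolar cells. Just inside, with exactly 3, the latter count was 160 of 180. Among the selecting genes, Zfhx4 was seen in 207 of the 244 and 173 of the 180, Slit2 in 135 and 138, Cdh8 in 91 and 142, Irx6 in 15 and 61 and Cntnap5a in 40 and 26, values that the rule itself sets.

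Members made up 1.68% of kept barcodes in OIR replicate 1 (102 of 6056, exact 95% binomial interval 1.38 to 2.04%), 0.527% in OIR replicate 2 (29 of 5502, 0.353 to 0.756%) and 0.455% in OIR replicate 3 (34 of 7470, 0.315 to 0.635%). In controls they made up 2.41% (172 of 7146, 2.06 to 2.79%), 0.205% (11 of 5371, 0.102 to 0.366%) and 0.256% (18 of 7024, 0.152 to 0.405%). Replicate 1 was far above the other replicates in both groups, and the groups overlapped (0.889 ± 0.690% against 0.956 ± 1.26%, SD, n = 3 each, two-sided exact permutation p = 1, smallest possible 0.1). Bipolar barcodes as a whole showed the same layout, at 24.9, 6.89 and 5.89% of kept barcodes in OIR replicates 1, 2 and 3 and 32.3, 6.22 and 4.84% in controls. As a share of bipolar barcodes, members stood at 6.30, 6.33 and 7.05% in OIR and 7.28, 2.99 and 4.41% in controls (exact permutation p = 0.4). Because the rule needs detected genes, it moves with depth. Thinning to 2000 UMIs left out the barcodes below that depth, so that 5091 of 6056, 3239 of 5502 and 3767 of 7470 kept barcodes stayed in OIR and 5642 of 7146, 2577 of 5371 and 1761 of 7024 in controls. Among these, members were 4.72, 2.83 and 3.14% of bipolar barcodes in OIR and 5.05, 3.97 and 4.33% in controls, with overlap between the groups (exact permutation p = 0.3). Each OIR value there lay below that of the control with the same replicate number, which before thinning held for replicate 1 only. The permutation test did not use these pairs. The intervals cover counting error only. A change in the share of these cells was not detectable with 3 samples a group.

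**Figure D1:**
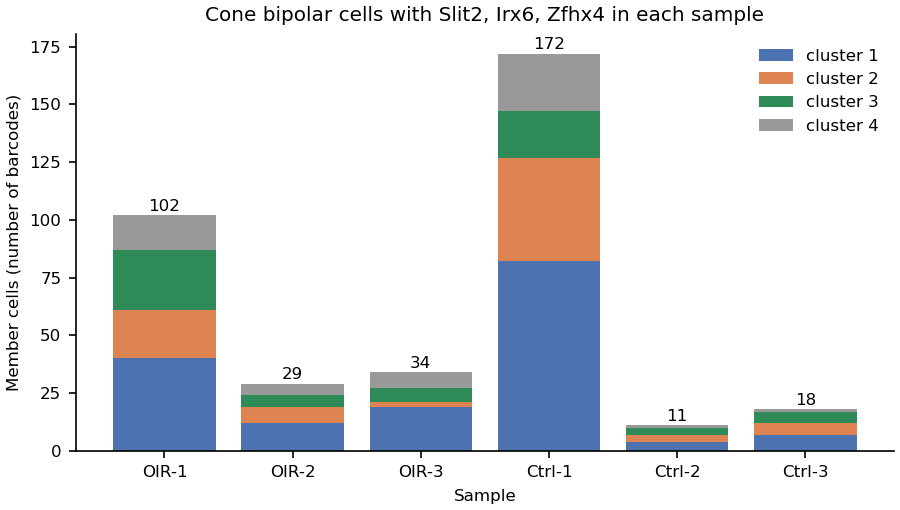
Number of member cells in each of the 6 samples (y axis, cells), stacked by the 4 clusters described below. Replicate 1 of each group supplies most members, 102 in OIR and 172 in Ctrl, against 11 to 34 in the other samples.

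The bipolar label was checked against genes the rule did not use. Scgn was detected in 88.5% of members, Otx2, a homeobox gene of photoreceptors and bipolar cells, in 79.8% and Trpm1 in 74.0%. All 14 shared bipolar genes were detected, and together they held 7920, 10144 and 10665 CPM in OIR and 9233, 11785 and 11476 CPM in controls, against a mean of 4187 CPM over all kept barcodes. At least 3 of the 10 shared bipolar genes were found in 343 of the 366 members. RNA typical of other cells was present as well. The 15 rod genes were all detected and summed to 7691, 6069 and 8745 CPM in OIR members and 9737, 5027 and 4182 CPM in control members, against 50111 CPM over all kept barcodes. Arr3 was at 0 by the rule, and the cone list was led by Gngt2. Amacrine genes were not absent: 8 of 11 were detected (Th and Chat were at 0, and Tfap2b by the rule), led by Pax6, and they summed to 172, 4.95 and 21.3 CPM in OIR members and 208, 130 and 411 CPM in control members, against 215 CPM over all kept barcodes. Of this list, Gad1, Gad2 and Slc32a1, genes of inhibitory transmission, were seen in few cells. A UMI of any of them was found in 13 of the 366 members, namely 3, 0 and 1 in OIR and 5, 1 and 3 in controls. Without these 13 members the list was at no more than 19.1 CPM in any sample, with Gad1, Gad2 and Slc32a1 at 0 by that choice. Horizontal cell genes summed to 214 CPM in OIR and 202 CPM in controls on average, near the 224 CPM of all kept barcodes, with Lhx1 and Onecut1 at 0 and Sept4 the most abundant. Of the ganglion cell genes Slc17a6, Pou4f1, Pou4f2 and Isl2 were at 0, and the list reached 57.3 CPM in Ctrl replicate 3. The endothelial list, with Tie1 at 0, was led by Esam. Lens crystallins, led by Cryba1, reached 1045 CPM in OIR replicate 2 and at most 138 CPM in the other samples, and the microglial list, led by C1qc, reached 390 CPM in OIR replicate 3 and was at 0 in Ctrl replicates 2 and 3. The part of these 2 lists in the results was not tested. Pairs of libraries shared 9 to 34 barcode sequences among all barcodes in the files, none of them a member in both.

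Slit2 was at 879 ± 228 CPM in members (SD over 6 samples), at 23.5 CPM in rod bipolar cells and at 33.4 CPM over all kept barcodes. Zfhx4 stood at 797 ± 178 CPM, Cdh8 at 330 ± 18.7 CPM, Irx6 at 219 ± 46.1 CPM and Cntnap5a at 170 ± 112 CPM. These are the genes that chose the cells, so their levels are a description. The order of Slit2 and Zfhx4 is within their spread, whereas Cdh8 was the steadiest of the 5 and Cntnap5a the most variable. Single samples ran from 649 CPM (Ctrl replicate 3) to 1289 CPM (Ctrl replicate 2) for Slit2 and from 56.7 CPM (OIR replicate 3) to 352 CPM (Ctrl replicate 2) for Cntnap5a. Scgn, which lies at chr13:23953456-23991214 on the minus strand and was not in the rule, stood at 1174 ± 414 CPM in members, 316 CPM in cone bipolar cells with Fezf2 and Grik1, 66.6 CPM in cone bipolar cells with at least 2 of Sox6, Kcng4 and Htr3a, and 12.8 CPM in rod bipolar cells.

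The members were not of a single kind. Clustering without the 9 rule genes gave 4 clusters, each found in all 6 samples. Cluster 1 (164 members) carried Grm6 in 97.0%, Isl1, a homeobox gene of ON bipolar cells, in 96.3%, Reln (the secreted protein reelin) in 95.7%, Cck (the peptide cholecystokinin) in 65.2% and Cnmd (chondromodulin) in 56.7%. With Reln, Cck and Cnmd among its leading genes it was called type 6-like, although Cntn4, the fourth gene of that list, had 0 UMIs in it. Genes of the type 8 and 9 list were as common there, with Gabrr3 in 64.0% and Cntn5 in 50.6% of cells. The rest of that list was in at most 18.9% (Serpini1). The name is therefore a label for the cluster and does not settle its type. Cluster 3 (65 members) carried Nxph1 (neurexophilin) in 81.5%, Neto1 (an auxiliary subunit of kainate receptors) in 78.5% and Syt2 (a synaptotagmin) in 63.1%, and was called type 2-like. This name too is only a label. Chrm2, the remaining gene of the type 2 list, was in 36.9% of the cells of cluster 3, and Tacr3 of the type 1 list was in 56.9%. The other type 1 genes were in at most 10.8% (Pcdh10). Cluster 3 also held most of the amacrine RNA, with Gad1 in 12.3%, Slc32a1 in 13.8% and Pax6 in 15.4% of its cells. Cluster 2 (83 members) was led by Gsg1 and Cabp5 and carried Grik1, a kainate receptor subunit of OFF cells, in 75.9%, the cation channel gene Hcn4 in 65.1% and Erbb4 in 57.8%. It kept its number, since Cntn4 of the type 6 list was also among its leading genes. Cluster 4 (54 members) was led by rod genes such as Slc24a1, Rp1 and Pde6b, with 2.75% of its UMIs from the rod list against 0.44 to 0.643% in the other clusters, and stayed unnamed. A doublet score (Scrublet) put 10 of the 15 members in its top 5% in cluster 4.

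The selecting genes were spread unevenly over these clusters. Slit2 reached 1649 CPM in cluster 2 and 1432 CPM in the type 2-like cluster, against 239 CPM in the type 6-like cluster, where Cntnap5a was detected in only 3.05% of cells. A UMI of Grm6 or Isl1 was seen in 219 of the 366 members, 160 of them in the type 6-like cluster, 31 in cluster 4, 17 in the type 2-like cluster and 11 in cluster 2. By sample they were 63 of 102, 14 of 29 and 24 of 34 members in OIR and 105 of 172, 4 of 11 and 9 of 18 in controls, shares that overlapped between the groups. The rule thus joined cells with ON and with OFF genes, together with a few cells that carried amacrine genes, so the label describes most members and no single type. Cluster 2 took 20.6, 24.1 and 5.88% of members in OIR and 26.2, 27.3 and 27.8% in controls, and cluster 4 took 14.7, 17.2 and 20.6% in OIR and 14.5, 9.09 and 5.56% in controls. In both the groups did not overlap, but the clusters were made from genes that themselves differed between OIR and control, so their sizes are given as a description with no test. Of the summed UMIs, cluster 2 gave 124937, 41856 and 1754 in OIR and 250554, 18491 and 23204 in controls. In OIR replicate 3 it was thus nearly absent, at 1754 of 282232 member UMIs from 2 cells.

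**Figure D2:**
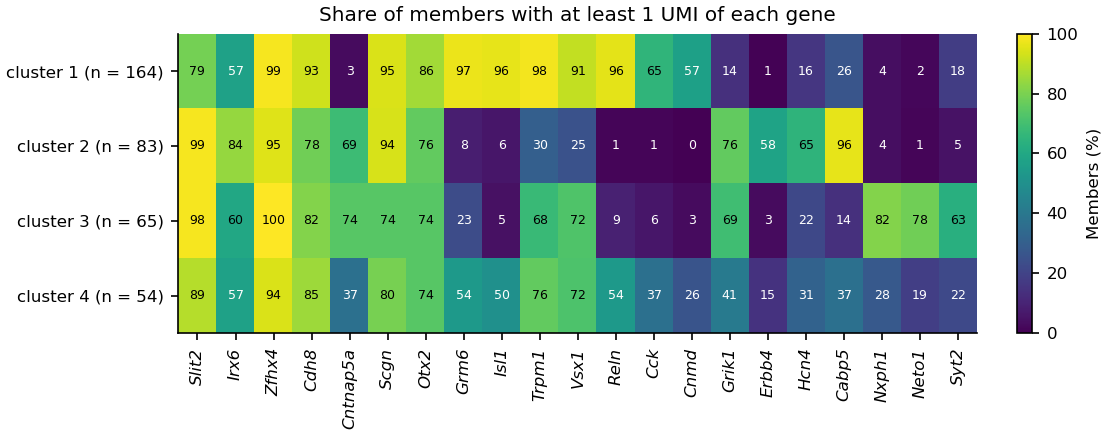
Percentage of members with a UMI (colour and printed value) for 21 genes in columns and the 4 clusters in rows. Grm6, Isl1, Reln and Cck concentrate in cluster 1, Erbb4 and Hcn4 in cluster 2, Nxph1, Neto1 and Syt2 in cluster 3.

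OIR was compared with control over the members' UMIs summed per sample, in a fit across 4526 genes. Genes of the response to low oxygen and of glucose handling were among those that rose in OIR, and the carbonic anhydrase gene Car2 and the peptide gene Cck were among those that fell. By edgeR's quasi-likelihood test, 12 genes rose (0.265% of those tested) and 4 fell (0.0884%). A call needed a p under 0.05 after Benjamini-Hochberg adjustment together with a log2 fold change whose size reached 0.25, and 446 genes had an unadjusted p under 0.05. In all 16 the 3 OIR and 3 control values did not overlap, which held for 16.5% of all genes tested (9.63% with OIR higher and 6.89% with OIR lower). The calls leaned on single samples. Of the 16, 12, 11 and 9 were still called without OIR replicate 1, 2 or 3, and 8, 13 and 16 without Ctrl replicate 1, 2 or 3. With replicates 2 and 3 alone 18 genes rose and 24 fell, 4 of the 16 among them. All 16 kept their direction in every alternative fitted. DESeq2 called 9 of the 16, gave no adjusted p for 5 and did not call Cck and Fam162a. A sex term kept 13, with Higd1a (edgeR adjusted p = 0.0508), Marcks (0.0871) and Psd3 (0.0860) lost. With the replicate number as a block, 53 genes rose (1.17%) and 45 fell (0.994%), the 16 among them, and where the block changes a call its value is given below beside the unblocked one. Without the 13 members with Gad1, Gad2 or Slc32a1, 23 genes rose (0.519%) and 16 fell (0.361%), again with the 16 among them. Nothing in the labels says whether replicates came from separate litters, and p-values measure the spread between these samples. Median UMIs per member were 7606, 8157 and 8750 in OIR and 6263, 7283 and 5859 in controls, so the OIR members were the deeper ones in every sample (exact permutation p = 0.1, the smallest possible). In the 344 members with at least 2000 UMIs, thinned to that number, 941 genes were left for edgeR, none was called and 83 had an unadjusted p under 0.05. There Bnip3, Higd1a, Marcks, Car2 and Caly had log2 fold changes of 1.14, 0.97, 1.45, -1.60 and -1.59 (edgeR adjusted p of 0.210, 0.210, 0.132, 0.102 and 0.102).

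Egln1 encodes the prolyl hydroxylase that marks hypoxia-inducible factor (HIF) for degradation in oxygen and is itself a target of HIF. It was at 262, 337 and 206 CPM in OIR replicates 1, 2 and 3 and at 101, 78.1 and 95.5 CPM in the controls (log2 fold change 1.42 ± 0.24, SE, edgeR adjusted p = 0.00733). Bnip3, a mitochondrial receptor for mitophagy, was at 442, 500 and 344 CPM in OIR and 149, 169 and 181 CPM in controls (1.38 ± 0.22, edgeR adjusted p = 0.00635). For both genes the lowest OIR sample was above the highest control. Higd1a, a mitochondrial protein induced by hypoxia, was the most even of the group over samples, at 817, 738 and 780 CPM in OIR and 357, 378 and 363 CPM in controls (1.07 ± 0.19, edgeR adjusted p = 0.0107). Ndrg1, another gene induced by low oxygen, was at 74.9, 74.3 and 49.6 CPM in OIR, and in controls at 10.1 CPM in replicate 1 and at 0 in replicates 2 and 3, with 58, 15 and 14 UMIs against 11, 0 and 0. Its fitted log2 fold change was 2.94 ± 0.49 (edgeR adjusted p = 0.00733), and the call was lost without OIR replicate 1 (edgeR adjusted p = 0.140). Without Ctrl replicate 1 all control UMIs were 0, and the fitted value of 7.29 (edgeR adjusted p = 0.0278) gives no size of the change. Fam162a, a mitochondrial protein that responds to HIF, was at 240, 317 and 230 CPM in OIR and 105, 78.1 and 162 CPM in controls (1.17 ± 0.24, edgeR adjusted p = 0.0373), less firm than the others, since its call was lost in 10 of 22 alternative settings, including without any 1 of the samples other than Ctrl replicate 3 (edgeR adjusted p of 0.0565 to 0.189).

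The hypoxia list held 40 genes, of which 28 were tested. Egln1, Bnip3, Higd1a, Ndrg1 and Hk2 rose (5 genes), none fell, 23 of the 28 had a log2 fold change above 0, and the median was 0.56, beside -0.01 over all genes tested. Over all genes tested 0.265% rose and 2222 of 4526 had a log2 fold change above 0. With the replicate block 12 of the 28 rose and none fell, beside 1.17% of all genes that rose with it. Fam162a was not on the list. The lists were written with results of these data known, so their counts are descriptions and not independent evidence of a direction.

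Genes of glucose handling were measured next. Hk2, hexokinase, the first enzyme of glycolysis, was at 132, 94.1 and 99.2 CPM in OIR and 18.5, 26.0 and 28.6 CPM in controls (2.43 ± 0.34, edgeR adjusted p = 0.00221). A UMI of Hk2 was found in 49.0, 37.9 and 47.1% of OIR members and in 9.09 to 16.7% of control members. Every OIR sample thus stood above every control by level and by share of cells. The call was lost without Ctrl replicate 1 (2.05, edgeR adjusted p = 0.0721) and with replicates 2 and 3 alone (1.76, edgeR adjusted p = 0.161). Slc16a3, a monocarboxylate transporter that exports lactate, was at 143, 238 and 156 CPM in OIR and 54.4, 39.1 and 47.7 CPM in controls (1.69 ± 0.28, edgeR adjusted p = 0.00733). Of the 21 glycolysis genes, many of them also on the hypoxia list, 20 were tested, Hk2 and Slc16a3 rose, none fell, and 17 were above 0 with a median of 0.62. Ldha, the lactate dehydrogenase subunit, was at 1141, 1139 and 1268 CPM in OIR and 567, 534 and 773 CPM in controls (0.90 ± 0.19, edgeR adjusted p = 0.0529). Pgk1, phosphoglycerate kinase, stood at 964, 906 and 925 CPM against 556, 417 and 525 CPM (0.84 ± 0.19, edgeR adjusted p = 0.0571). Both had OIR values wholly above the controls but missed the threshold, which they passed with the replicate block (edgeR adjusted p of 0.00106 and 0.00335). Other settings gave the call too, so that in all Ldha was called in 10 of 23 alternatives, among them without Ctrl replicate 3 (edgeR adjusted p = 0.0216), and Pgk1 in 5 of 23, among them without Ctrl replicate 1 (edgeR adjusted p = 0.0367). Without the members with Gad1, Gad2 or Slc32a1, Ldha passed and Pgk1 did not (0.98 and 0.81, edgeR adjusted p of 0.0154 and 0.0572). With the replicate block 9 of the 20 glycolysis genes rose and none fell. These counts stand beside 0.265% of all genes that rose without the block, 1.17% with it, and 2222 of 4526 above 0.

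The core letters of the HIF binding element, ACGTG, were searched on both strands (CACGT on the other strand) in RefSeq promoter windows of 300 bases, from 250 before to 50 after a gene's start (GRCm38.p6). They occur in 19.6% of 32851 windows. Of the 16 called genes 11 had a window. The letters stood in 7 of the 9 such genes that rose (Hk2, Kcne2, Bnip3, Slc16a3, Egln1, Higd1a and Fam162a, but not Hmgb2 or Ppp1r14b) and in both that fell (Cck and Caly), Kcne2 and Caly having them in 1 of 2 windows. No window was held for Fabp5, Ndrg1, Marcks, Car2 and Psd3. The 4 windows printed belong to genes of oxygen sensing, mitophagy and glucose handling that rose, with the matches in capitals, each written along its gene's strand. Hk2 (chr6:82774405-82774704, minus strand) has matches starting at -226 and -52 from the start, Bnip3 (chr7:138909457-138909756, minus strand) has a palindrome CACGTG read from both strands at -108, Slc16a3 (chr11:120948817-120949116, plus strand) has matches at -27 and -14, and Egln1 (chr8:124949205-124949504, minus strand) has one at -68. GC content was 67.3, 71.7, 73.3 and 86.0% in that order. The Slc16a3 window begins downstream of the gene's annotated GRCm38 start at chr11:120948480, so its offsets refer to a different start. A match of letters is a description of the window and does not show binding.
Hk2: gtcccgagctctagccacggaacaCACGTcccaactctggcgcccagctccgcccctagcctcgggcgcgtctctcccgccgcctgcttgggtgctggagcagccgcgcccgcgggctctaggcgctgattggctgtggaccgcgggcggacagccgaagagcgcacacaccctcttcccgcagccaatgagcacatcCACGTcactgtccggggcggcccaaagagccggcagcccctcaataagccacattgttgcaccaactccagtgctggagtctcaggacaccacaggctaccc
Bnip3: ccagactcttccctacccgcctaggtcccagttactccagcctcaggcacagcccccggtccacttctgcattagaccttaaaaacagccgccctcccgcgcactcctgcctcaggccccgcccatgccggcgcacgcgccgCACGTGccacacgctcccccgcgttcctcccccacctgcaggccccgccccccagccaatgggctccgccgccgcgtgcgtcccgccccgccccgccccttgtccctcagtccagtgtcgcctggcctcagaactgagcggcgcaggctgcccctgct
Slc16a3: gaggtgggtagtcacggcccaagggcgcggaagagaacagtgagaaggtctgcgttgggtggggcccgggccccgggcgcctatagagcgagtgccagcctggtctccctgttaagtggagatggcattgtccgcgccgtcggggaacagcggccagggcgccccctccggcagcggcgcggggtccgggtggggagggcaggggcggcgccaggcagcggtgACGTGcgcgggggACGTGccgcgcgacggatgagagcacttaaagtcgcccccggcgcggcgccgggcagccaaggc
Egln1: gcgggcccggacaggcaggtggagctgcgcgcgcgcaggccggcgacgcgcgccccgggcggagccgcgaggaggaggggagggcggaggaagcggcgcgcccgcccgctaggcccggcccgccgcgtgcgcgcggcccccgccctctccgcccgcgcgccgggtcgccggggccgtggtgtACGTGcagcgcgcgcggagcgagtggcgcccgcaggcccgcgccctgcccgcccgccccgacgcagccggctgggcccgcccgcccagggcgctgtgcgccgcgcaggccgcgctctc

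Outside those lists as well, Fabp5 (chr3:10012548-10016607), a fatty acid-binding protein, was at 147, 144 and 191 CPM in OIR and 36.0, 26.0 and 38.2 CPM in controls (2.13 ± 0.28, edgeR adjusted p = 0.00221). Hmgb2 (chr8:57511907-57515999), a chromatin protein of the high-mobility group, was at 132, 178 and 220 CPM in OIR and 41.5, 26.0 and 19.1 CPM in controls (2.16 ± 0.31, edgeR adjusted p = 0.00221). Both were well separated, although the control values of replicates 2 and 3 rested on 2 or 4 UMIs each, and without Ctrl replicate 1 the log2 fold change of Hmgb2 was 2.93. Kcne2 (chr16:92292389-92298129), an accessory subunit of potassium channels, was at 119, 74.3 and 63.8 CPM in OIR and 7.38, 39.1 and 9.55 CPM in controls (3.14 ± 0.49, edgeR adjusted p = 0.00517). In the type 6-like cluster, which held most of its UMIs, Kcne2 was at 226, 128 and 103 CPM in OIR and 9.89, 0 and 21.0 CPM in controls. Over all members its call was lost without OIR replicate 1 or Ctrl replicate 1 (edgeR adjusted p of 0.127 and 0.152), in the latter case with a log2 fold change of 2.07. Marcks, an actin-binding substrate of protein kinase C, stood at 264, 446 and 386 CPM against 159, 143 and 143 CPM (1.18 ± 0.23, edgeR adjusted p = 0.0252). Ppp1r14b, an inhibitor of protein phosphatase, stood at 80.1, 109 and 85.0 CPM against 23.1, 0 and 38.2 CPM (1.90 ± 0.38, edgeR adjusted p = 0.0264). The groups did not overlap for either, but the Marcks call was lost without each of OIR replicates 2 and 3 and Ctrl replicates 1 and 2 (edgeR adjusted p of 0.164, 0.103, 0.0601 and 0.0831), and the Ppp1r14b call without OIR replicate 2 or 3 or Ctrl replicate 1 (edgeR adjusted p of 0.164, 0.110 and 0.150). The size of the Marcks change also moved with the members taken, to 1.87 ± 0.27 without those with Gad1, Gad2 or Slc32a1 (edgeR adjusted p = 0.0011) and to 1.97 in members with at least 3 bipolar genes and without the tenth richest in rod UMIs. Fabp5 lost its call when barcodes above 5000 genes were let in (0.41 ± 0.43, edgeR adjusted p = 0.879), a setting with 395 barcodes in which 2 genes, Hk2 and Ndrg1, rose and none fell (484 of 6310 genes had an unadjusted p under 0.05 by edgeR).

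Of the 4 genes that fell, Cck (chr9:121489824-121495694) had the largest fitted change, although without Ctrl replicate 1 that of Psd3 was larger (-2.07 against -1.75), as it was with replicates 2 and 3 alone (-2.21 against -2.11). Cck was at 165, 9.90 and 188 CPM in OIR and 921, 286 and 611 CPM in controls (-2.33 ± 0.44, edgeR adjusted p = 0.0217), and a UMI of it was seen in 19.6, 3.45 and 26.5% of OIR members and 53.5, 27.3 and 38.9% of control members. OIR replicate 2 was lowest, with 2 UMIs. Within the type 6-like cluster Cck was at 325, 17.1 and 182 CPM in OIR and 1654, 740 and 1324 CPM in controls, and there too the groups did not overlap. The call was lost without OIR replicate 3 (edgeR adjusted p = 0.0539) or Ctrl replicate 1 (edgeR adjusted p = 0.0868), with replicates 2 and 3 alone (0.117) and by DESeq2 (adjusted p = 0.577). Cnmd, another gene of the type 6 list, was at 46.5, 24.8 and 85.0 CPM in OIR and 172, 130 and 85.9 CPM in controls (-1.50 ± 0.33, edgeR adjusted p = 0.0529). All 4 genes of that list were tested, all had a log2 fold change below 0, and 1 was called, or 2 with the replicate block (Cnmd, edgeR adjusted p = 0.00804) and without the members with Gad1, Gad2 or Slc32a1 (Cnmd, edgeR adjusted p = 0.0161). Over all genes tested, 0.0884% fell in the main fit, 0.994% with the block and 0.361% without those members. In the main fit 2304 of 4526 genes lay below 0. Cnmd was called in 10 of 20 alternatives in all, among them without OIR replicate 3 or Ctrl replicate 3 (edgeR adjusted p of 0.0284 and 0.0111).

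Car2 (chr3:14886273-14900770), a cytosolic carbonic anhydrase, was at 525, 688 and 340 CPM in OIR and 1803, 1211 and 1041 CPM in controls (-1.46 ± 0.25, edgeR adjusted p = 0.00972). In cluster 2 it was at 1321, 1720 and 570 CPM in OIR, the last from 1 UMI, and at 2874, 3083 and 1939 CPM in controls. Over all samples Car2 was highest in cluster 2, at 2300 CPM against 491 to 971 CPM in the other clusters. Cluster 2 supplied only 1754 of the 282232 member UMIs in OIR replicate 3, and its part in the Car2 change was not tested. Car2 is also a Müller glia marker. The other 11 genes of that list, led by Apoe, summed in members to 866, 218 and 716 CPM in OIR and 1007, 182 and 210 CPM in controls, with overlap between the groups. Of the 12 genes 4 were tested, Car2 among them, with 3 below 0, a median of -1.19 and 3 with an unadjusted p under 0.05 by edgeR. Over all 4526 genes tested, 2304 lay below 0 and 446 had such a p. Only Car2 of the list was called, and the part of Müller glia RNA in its change was not tested. Without OIR replicate 3 the Car2 call was lost (edgeR adjusted p = 0.112). Caly, which encodes a vesicle protein of neurons, stood at 145, 114 and 78.0 CPM in OIR and 315, 195 and 286 CPM in controls (-1.29 ± 0.25, edgeR adjusted p = 0.0236). Psd3, an exchange factor for Arf GTPases, stood at 25.8, 14.9 and 28.3 CPM against 68.3, 130 and 85.9 CPM (-1.74 ± 0.37, edgeR adjusted p = 0.0456). Both calls were the least steady of the 16, lost in 12 of 23 and 10 of 17 alternative settings, with the direction kept in each. Caly lost it without OIR replicate 2, OIR replicate 3 or Ctrl replicate 1 (edgeR adjusted p of 0.149, 0.189 and 0.151), and Psd3 without any 1 of the samples other than Ctrl replicate 3 (edgeR adjusted p of 0.0601 to 0.184).

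**Figure D3:**
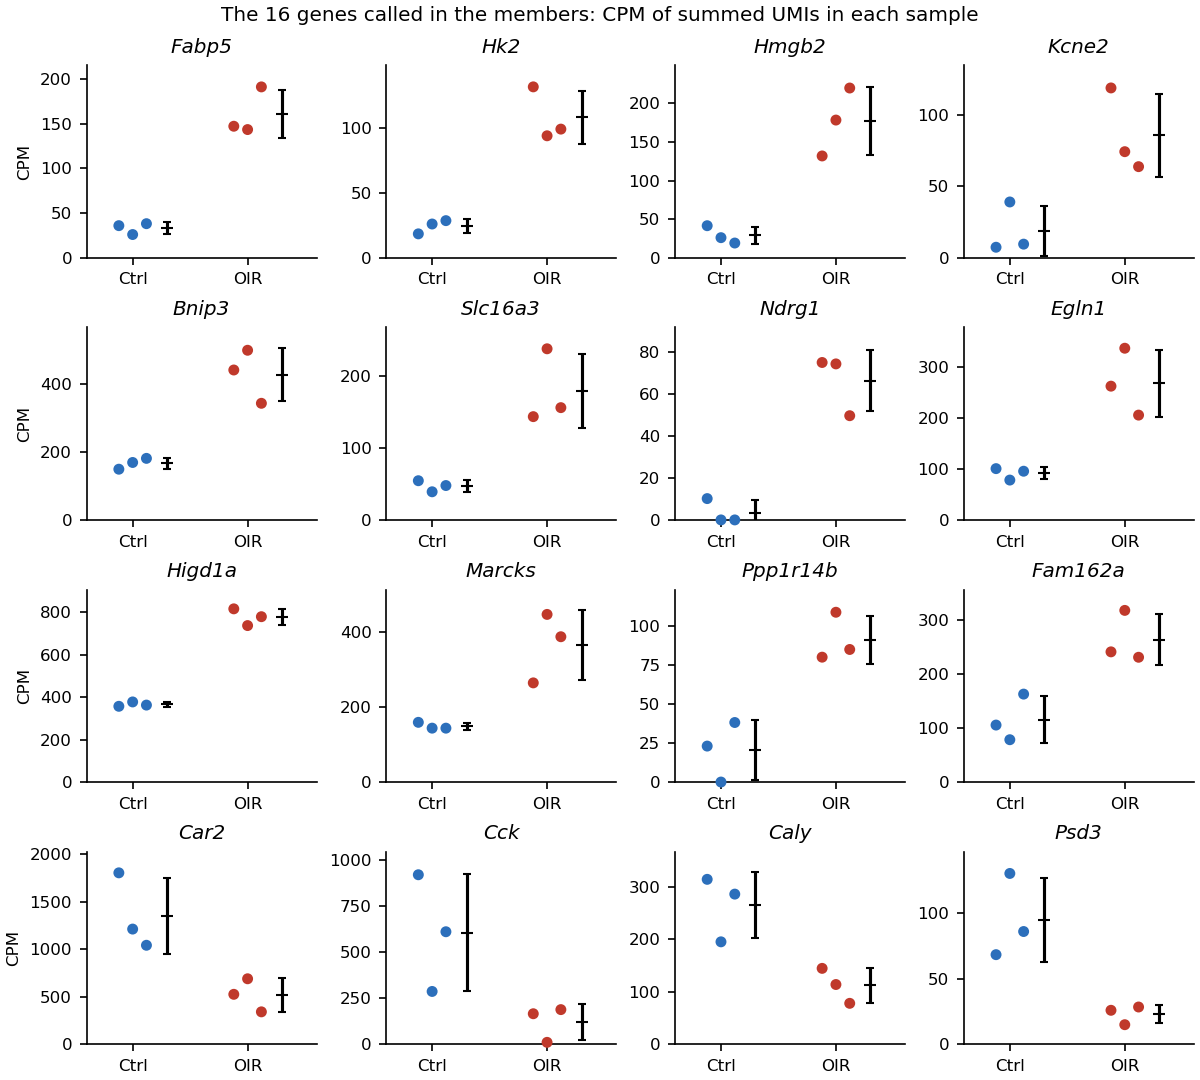
CPM (y axis, linear from 0) of the 16 called genes in members of each sample, with group mean and SD (n = 3). In each panel the 3 OIR points lie wholly above (12 genes) or below (4 genes) the 3 Ctrl points.

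None of the genes for bipolar identity outside the type 6 list passed the unblocked test over all members. Isl1 was at 934, 1658 and 1552 CPM in OIR and 996, 820 and 1241 CPM in controls, with overlap (0.39, edgeR adjusted p = 0.607). Gnb3, the G protein subunit of ON bipolar cells, was at 1586, 1599 and 2037 CPM against 1168, 599 and 1117 CPM (0.79 ± 0.23, edgeR adjusted p = 0.171). Cabp5, a calcium-binding protein of bipolar terminals, was at 297, 347 and 131 CPM against 664, 716 and 439 CPM (-1.27 ± 0.28, edgeR adjusted p = 0.0529). Cabp5 and Gnb3 had groups that did not overlap but missed the threshold, which both passed with the replicate block (edgeR adjusted p of 9.99e-05 and 0.00422). Without the members with Gad1, Gad2 or Slc32a1 Cabp5 passed without a block and Gnb3 did not (-1.31 and 0.72, edgeR adjusted p of 0.0154 and 0.221). In all, Cabp5 was called in 10 and Gnb3 in 3 of 23 alternatives, Cabp5 among them without OIR replicate 1 or Ctrl replicate 3 (edgeR adjusted p of 0.0446 and 0.0131). Cabp5 in cluster 2 was at 1441, 1553 and 1140 CPM in OIR, the last from 2 UMIs, and 2367, 2325 and 1939 CPM in controls. Over the 14 shared bipolar genes the median log2 fold change was -0.11 with no call, over 12 tested ON cascade genes -0.17 with no call, and over 7 tested OFF genes 0.41 with no call. Of the type 2 genes 3 were tested with a median of 0.80, Syt2 being at 68.5, 89.1 and 88.6 CPM in OIR and 43.4, 52.1 and 9.55 CPM in controls (0.96, edgeR adjusted p = 0.311).

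Genes of the synapse had no call in either direction in the unblocked test over all members. Of 24 tested ribbon synapse genes 20 lay below 0 (median -0.30), of 16 transmitter receptor genes 11 (median -0.33) and of 17 ion channel genes 15 (median -0.37), while over all genes 2304 of 4526 lay below 0. Snap25, a subunit of the vesicle fusion machinery, was at 747, 748 and 705 CPM in OIR and 960, 1068 and 974 CPM in controls (-0.47 ± 0.18, edgeR adjusted p = 0.37). Grm5, a metabotropic glutamate receptor, was at 99.5, 129 and 152 CPM against 189, 326 and 220 CPM (-0.89, edgeR adjusted p = 0.148). Cacna2d3, an auxiliary subunit of calcium channels, was at 142, 134 and 131 CPM against 270, 182 and 191 CPM (-0.80, edgeR adjusted p = 0.14). In each of these 3 genes all OIR values were below all control values, without passing the adjusted threshold. Grm5 passed it with the replicate block (edgeR adjusted p = 0.0169) and Cacna2d3 with a sex term (edgeR adjusted p = 0.0421). Gria2, an AMPA receptor subunit, was at 537, 792 and 868 CPM in OIR and 650, 1940 and 1308 CPM in controls, with overlap (-0.80 ± 0.29, edgeR adjusted p = 0.334). With the replicate block it was called (-0.71, edgeR adjusted p = 0.0218), with a sex term its log2 fold change was 0.099, and without the members with Gad1, Gad2 or Slc32a1 it was -0.63 (edgeR adjusted p = 0.43). It ran from -1.15 to -0.40 when a replicate was left out, called without Ctrl replicate 1 (edgeR adjusted p = 0.0156).

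Guidance and adhesion genes, the families of the selecting genes, were thinly measured. Of 22 guidance ligands 2 passed the filter on low counts, Slit2 among them, and the other, Flrt3, was at 31.0, 34.7 and 24.8 CPM in OIR and 43.4, 91.2 and 105 CPM in controls (-1.03, edgeR adjusted p = 0.378). Of 27 guidance receptors 7 were tested with a median of -0.24, among them the netrin receptor Neo1 (-0.82, edgeR adjusted p = 0.603). Of 51 adhesion genes 26 were tested, 14 above and 12 below 0 (median 0.02), and none was called. Pcdh7, a protocadherin, was at 51.7, 64.4 and 46.1 CPM in OIR and 47.1, 286 and 659 CPM in controls (-2.23 ± 0.68, edgeR adjusted p = 0.193). Its high values were those of Ctrl replicates 2 and 3, and the log2 fold change ran from -3.18 without Ctrl replicate 1, where it was called (edgeR adjusted p = 1.26e-05), to -0.73 without Ctrl replicate 3. It was called with replicates 2 and 3 alone as well (-3.19, edgeR adjusted p = 0.00109). Without the 13 members with Gad1, Gad2 or Slc32a1, Pcdh7 was at 17.7, 64.4 and 48.4 CPM in OIR and 45.3, 135 and 33.4 CPM in controls (-0.64 ± 0.46, edgeR adjusted p = 0.712). With the replicate block it passed the threshold in all members (-1.79 ± 0.40, edgeR adjusted p = 0.00963), and with a sex term its log2 fold change was 0.12.

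Stress and immune genes had no call in the unblocked test over all members either. Without the members with Gad1, Gad2 or Slc32a1, Mt1, Mt2 and H2-T23 were called higher in OIR (2.21, 2.15 and 2.23, edgeR adjusted p of 0.0132, 0.0223 and 0.0162). Of the heat shock genes 10 were tested (median -0.02), of immediate early genes 7 (0.09), of metallothionein and antioxidant genes 10 (0.23), of interferon and class I genes 3 (1.11) and of glial and vascular signals 8 (0.10). Mt1, a metal-binding metallothionein, was at 879, 926 and 191 CPM in OIR and 234, 65.1 and 47.7 CPM in controls (2.03 ± 0.47, edgeR adjusted p = 0.062), so OIR replicate 3 lay below Ctrl replicate 1. It passed with the replicate block (2.26 ± 0.25, edgeR adjusted p = 5.18e-07) and was called in 10 of 23 alternatives in all, among them without Ctrl replicate 1 (3.61, edgeR adjusted p = 0.0153) and without OIR replicate 3 (2.50, edgeR adjusted p = 0.00625). H2-T23, a class I molecule, had 36, 10 and 14 UMIs in OIR and 13, 0 and 1 UMIs in controls (2.10 ± 0.47, edgeR adjusted p = 0.0539), with CPM values that did not overlap between the groups, and passed with the block (edgeR adjusted p = 0.0305), one of 7 calls in 15 alternatives. Bdnf, the neurotrophin, was at 36.2, 29.7 and 21.3 CPM against 74.7, 52.1 and 57.3 CPM (-1.17, edgeR adjusted p = 0.183). The 15 rod genes were all tested, 10 above 0 (median 0.31) and none called. Without cluster 4 that median was -0.34.

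**Figure D4:**
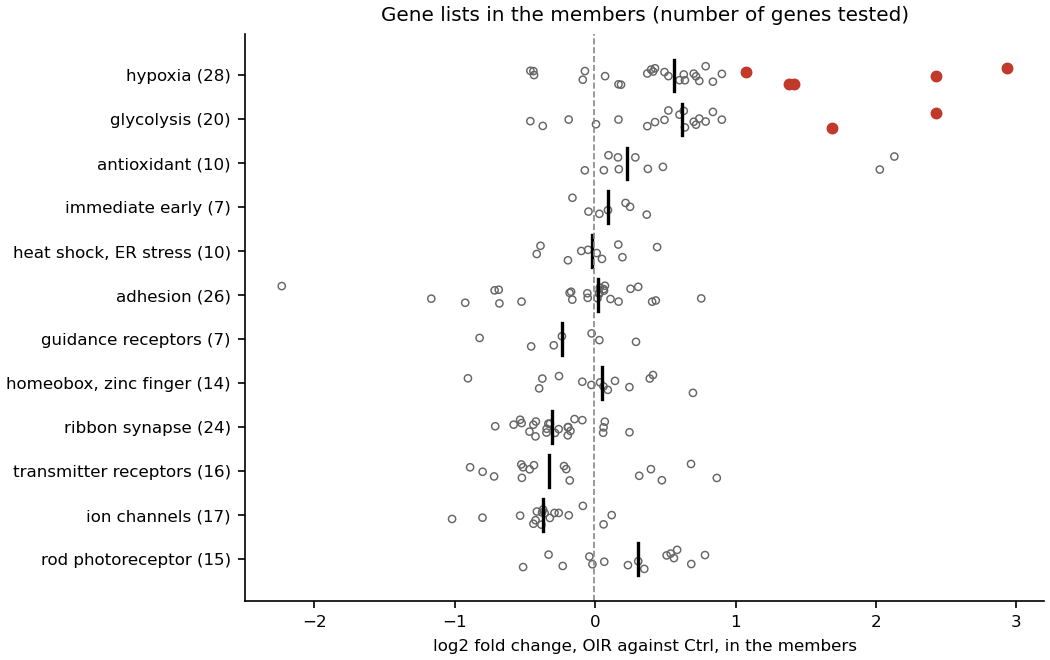
Log2 fold change, OIR against Ctrl, of each tested gene (points) in 12 gene lists, with called genes filled in red, the median of each list as a black bar and the median of all genes tested as a dashed line. The hypoxia and glycolysis medians of 0.56 and 0.62 lie right of the dashed line at -0.01, those of the ribbon synapse, receptor and ion channel lists left of it.

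The members with ON genes were then summed alone, a choice made after the data were seen. In the 219 members with a UMI of Grm6 or Isl1, 18 genes rose (0.504%) and 9 fell (0.252%) of 3574 tested, 12 of them among the 16. Kcne2 (4.12 ± 0.53, edgeR adjusted p = 0.000811), Ndrg1 and Cck (-2.59 ± 0.42, edgeR adjusted p = 0.00389) were among these, and Mt1 was called here as well (2.55 ± 0.46, edgeR adjusted p = 0.00633). Car2, Fam162a and Caly lost their call, at log2 fold changes of -1.30, 1.15 and -1.06 (edgeR adjusted p of 0.0568, 0.0708 and 0.111). Fabp5 was at 3.08 here (edgeR adjusted p = 0.000818), against 2.13 over all members. In the remaining members only 1247 genes could be tested, 1 rose (Gnb3, 2.56 ± 0.40, edgeR adjusted p = 0.029) and 1 fell (Scg2, a secretory granule protein, -1.39 ± 0.25, edgeR adjusted p = 0.0497). Both are named after their values were seen. In these cells Bnip3 was at 1.26 (edgeR adjusted p = 0.492), Higd1a at 0.83 and Fam162a at 1.16 (edgeR adjusted p of 0.348 for both). Over all members of a cluster Gnb3 was at 252 CPM in cluster 2, 582 CPM in the type 2-like cluster and 1249 CPM in cluster 4. The shares of these clusters differed between samples, and their part in the Gnb3 call was not tested. The difference between these subsets was not tested either.

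The OIR effect in members was compared with that in 3 other bipolar sets of the same libraries by an interaction term: 1876 rod bipolar cells, 362 cone bipolar cells with Fezf2 and Grik1, and 503 cone bipolar cells with at least 2 of Sox6, Kcng4 and Htr3a. The effect differed for 44 of 9719 genes against rod bipolar cells (0.453%), for 5 of 4151 against the Fezf2 set (0.12%) and for 14 of 6342 against the Sox6 set (0.221%). Of the 16 genes called in members, Kcne2 and Car2 differed from rod bipolar cells, and none differed from the Fezf2 or the Sox6 set. The sets were of unequal depth, so a missing difference does not show that the effects were alike.

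The 5 called genes of the hypoxia list are set side by side with the other sets. Egln1 had a log2 fold change of 1.42 in members, 1.48 in rod bipolar cells, 1.39 in the Fezf2 set and 0.90 in the Sox6 set. Bnip3 stood at 1.38, 1.31, 1.12 and 0.69 in the same order, Higd1a at 1.07, 1.05, 0.63 and 0.20, and Ndrg1 at 2.94, 2.12, 1.02 and 1.74. Hk2 stood at 2.43 in members, 2.14 in rod bipolar cells and 1.33 in the Sox6 set. None of these differences from the members passed the interaction test. The lowest adjusted p were those of Ndrg1 against the Fezf2 set (edgeR adjusted p = 0.085) and Higd1a against the Sox6 set (edgeR adjusted p = 0.104).

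Kcne2 differed in its control level. In rod bipolar cells it was at 373, 337 and 231 CPM in OIR and 219, 219 and 232 CPM in controls (0.48), so the members' OIR level of 63.8 to 119 CPM was still below that of rod bipolar cells, and the effect was larger in members by 2.70 ± 0.40 (edgeR adjusted p = 4.56e-06). Car2 was at 431, 375 and 323 CPM in OIR and 512, 408 and 372 CPM in controls of rod bipolar cells (-0.23), and the difference in effect was -1.19 ± 0.18 (edgeR adjusted p = 4.56e-06). The control level of Car2 in members, 1041 to 1803 CPM, lay above that of rod bipolar cells, and the OIR level, 340 to 688 CPM, overlapped it. Cck had 1, 0 and 0 UMIs in OIR and 28, 0 and 0 in controls of rod bipolar cells, too few to compare.

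**Figure D5:**
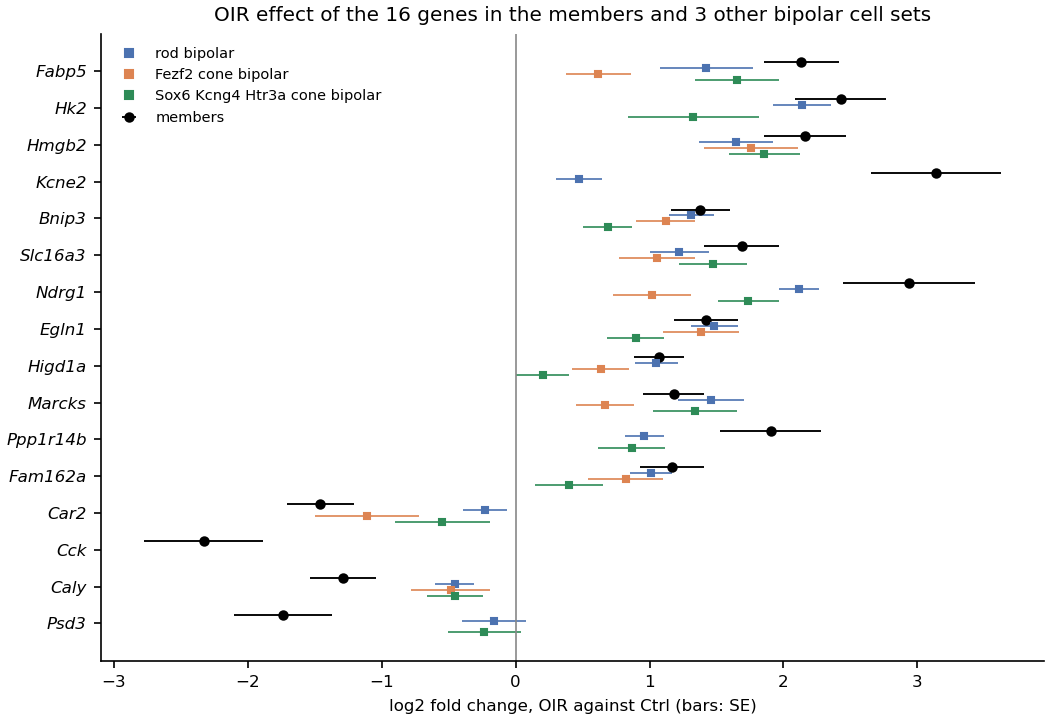
Log2 fold change, OIR against Ctrl, with SE of the 16 called genes in members and in the 3 comparison bipolar sets. Members stand apart from rod bipolar cells for Kcne2 (3.14 against 0.48) and Car2 (-1.46 against -0.23).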

How the data were processed

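Single-cell RNA-sequencing of retina from 3 OIR and 3 control samples was analysed. The authors deposited raw UMI counts per gene and barcode (31053 genes) for each sample. The labels name the mm10 mouse genome, the matrix headers software version 3.1.0, and the study's methods a pipeline (Cell Ranger) whose genome and version differ from these, so the aligner's settings are uncertain. OIR libraries (replicates 1, 2 and 3) totalled 37872383, 24615436 and 25061712 UMIs, and control libraries 42606878, 19702233 and 15788524. Precision was limited by the members' sums, from 76791 to 1083825 UMIs.

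The members, comparison sets and gene lists were chosen with earlier results of these data known. UMIs were summed per sample over members, filtered (filterByExpr), scaled (TMM) and tested with edgeR 4.0.16 (R 4.3.3, quasi-likelihood test). Calls used the limits of 0.05 for the p after Benjamini-Hochberg adjustment and 0.25 for the size of the log2 fold change. Fold changes are shown with SE. CPM are per 1000000 UMIs of the member sum. Interaction fits had terms for sample, cell set and cell set by OIR. Rule genes stayed in the fits and list counts but no test of them is reported. Shares were compared by a two-sided exact permutation test over samples (SciPy 1.17.1). Named genes were the rule and marker genes, the called genes with groups that did not overlap (up to 12 per direction, without sex-linked, mitochondrially encoded and unnamed genes), up to 4 genes per list and up to 3 per direction from each interaction fit, by lowest p. Members were clustered (scanpy 1.11.5, Leiden, 1000 variable genes, 15 components, 15 neighbours, resolution 0.5) after leaving out the rule genes. Doublets were scored, and members in the top 5% were left out in an alternative.

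Alternatives were DESeq2 1.42.0, no TMM, no filter, leaving out each replicate, a replicate block, a sex term, replicates 2 and 3 alone, other rules for members and barcodes, and thinning to 2000 UMIs, which leaves out shallower barcodes. Splits by Grm6 and Isl1 and the fit without the rod transcript cluster were added after seeing the data. A fit without members with Gad1, Gad2 or Slc32a1 was also added after seeing the data. The replicate numbers are shared by both groups, and deviations of same-numbered samples correlated at 0.670, 0.298 and 0.506 over all kept barcodes but at 0.119, 0.00285 and 0.0315 over members. Differently numbered samples reached 0.397 over all kept barcodes (OIR replicate 3 with Ctrl replicate 2, above the 0.298 of the same-numbered pair of Ctrl replicate 2) and 0.0395 over members (the same pair), so the numbers pair replicate 1 more clearly than replicates 2 and 3. The blocked value is given where it changes a call. The fits were also run on simulated counts, but the outcome is not reported here and no statement rests on it. Gene positions are from GRCm38. Values of a few genes are not reported here.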

Additional observations from a re-analysis of the deposited data

Results flagged for a closer look

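Among the differences in the OIR effect between members and a comparison set that edgeR's interaction test called, 17 results are described here. They are the up to 3 genes per direction and set with the lowest p, without sex-linked, mitochondrially encoded, unnamed and rule genes. Values are log2 differences (members minus the set) with SE and adjusted p. Against rod bipolar cells, Fos, an immediate early gene, differed by 2.41 ± 0.23 (1.66e-13). It was at 571, 272 and 230 CPM in OIR members and 510, 221 and 153 CPM in control members, with overlap, and at 63.6, 16.8 and 33.2 CPM in OIR and 234, 167 and 135 CPM in control rod bipolar cells, where it fell by 2.15. Kcne2 differed by 2.70 ± 0.40 (4.56e-06) and Car2 by -1.19 ± 0.18 (4.56e-06), with the levels given above. Pcp4l1, a Purkinje cell protein homologue, differed by 1.69 ± 0.27 (2.27e-05). It was at 400, 386 and 652 CPM in OIR and 438, 495 and 401 CPM in control members, and in rod bipolar cells at no more than 55.3 CPM. Cabp5 differed by -1.57 ± 0.21 (3.66e-07), being at 786, 1135 and 1083 CPM in OIR and 710, 798 and 757 CPM in control rod bipolar cells. Pcp2, a regulator of G protein signalling in ON bipolar cells, differed by -1.50 ± 0.24 (2.27e-05), at 327, 490 and 74.4 CPM in OIR and 703, 547 and 640 CPM in control members.

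Against the Fezf2 set, Drd4, a dopamine receptor gene of photoreceptors, differed by 3.39 ± 0.35 (4.09e-07) and Sag, the rod arrestin, by 1.13 ± 0.21 (0.0132). Drd4 was at 129, 129 and 167 CPM in OIR and 71.0, 0 and 28.6 CPM in control members, and at 99.9, 49.9 and 142 CPM in OIR and 526, 190 and 110 CPM in control cells of the set. Sag is on the rod list and Drd4 was among the leading genes of cluster 4, and without that cluster the log2 fold change of Sag in members was -0.32. Tuba1a, a tubulin, differed by 0.98 ± 0.18 (0.0132), at 1158, 1248 and 1637 CPM in OIR and 730, 781 and 869 CPM in control members. Rnd3, which encodes a small GTPase, differed by -1.91 ± 0.40 (0.042), and Cabp5 differed by -1.17 ± 0.25 (0.0485). Rnd3 had no value in the fit of the Fezf2 set alone, and in members its log2 fold change was -0.70. Pcp2, Cabp5 and Rnd3 were among the leading genes of cluster 2, which made up 5.88% of members in OIR replicate 3 and 20.6 to 27.8% in the other samples. By UMIs, which the fits use, it was only 1754 of the 282232 of OIR replicate 3. The part of that share in the differences of these genes was not tested.

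Against the Sox6 set, Lrtm1, a leucine-rich repeat membrane protein, differed by 2.58 ± 0.30 (1.44e-06). It was at 44.7, 21.4 and 27.4 CPM in OIR and 404, 209 and 182 CPM in control cells of that set, and at 411, 381 and 322 CPM in OIR and 571, 690 and 353 CPM in control members. Mt1 differed by 1.72 ± 0.29 (0.00208), Pde4b, a phosphodiesterase, by 2.85 ± 0.58 (0.0179) and Meg3, a long non-coding RNA, by -1.003 ± 0.19 (0.0144). Pde4b had no value in the fit of the Sox6 set alone, and in members its log2 fold change was -0.50. Pcdh7 differed by -2.24 ± 0.44 (0.0144) with the members' levels given above, and this difference was not refitted without the members with Gad1, Gad2 or Slc32a1. Ccdc136 differed by -2.45 ± 0.49 (0.0172), at 16.8, 9.90 and 7.09 CPM in OIR and 101, 0 and 38.2 CPM in control members, so its groups overlapped. Beyond the results picked by lowest p, Mt1, Sag and Ccdc136 also differed from rod bipolar cells. Their differences were 1.33 ± 0.24, 0.74 ± 0.18 and -2.41 ± 0.39 (edgeR adjusted p of 0.000217, 0.0289 and 2.27e-05).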

How the results depend on the processing

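The counts of calls (12 higher, 4 lower) moved with the processing, while the 16 genes kept their direction in every setting fitted. Higher calls were 57 with no filter, 25 with at least 2 rule genes and 3 bipolar genes, 20 in members with at least 3 bipolar genes and without the tenth richest in rod UMIs, 2 with no upper limit on genes, 0 after thinning to 2000 UMIs (941 genes tested by edgeR, 83 with an unadjusted p under 0.05), 1 in members without Grm6 and Isl1 and 23 without members with Gad1, Gad2 or Slc32a1, and ran from 10 to 25 when a replicate was left out. In the same order lower calls were 50, 11, 10, 0, 0, 1 and 16, with 7 without TMM, 8 with a sex term, 24 with replicates 2 and 3 alone and 9 in members with Grm6 or Isl1, and ran from 1 to 24 when a replicate was left out. DESeq2 gave 9 and 6, with 9 of the 16 among them. With the replicate number as a block, 53 rose and 45 fell, and calls the block changed for genes described above are given there. It also brought calls for Pcp2, Mt2, H2-K1, Drd4, Tuba1a, Meg3 and Scg2 (edgeR adjusted p of 0.00398, 9.99e-05, 0.0238, 0.019, 0.00768, 0.000245 and 0.000508) and changed no other call among the named genes. Without a block, Mt2 was also called in 9 other alternatives, and a few settings called Nxph1 (mitochondrial limit of 10%) and Sag (without Ctrl replicate 1 and with replicates 2 and 3 alone). Leaving out Ctrl replicate 1 also brought calls for Mt2 and Drd4, and leaving out Ctrl replicate 3 for Mt2 and Meg3. Interaction counts ran from 30 to 79 (rod bipolar), 1 to 25 (Fezf2 set) and 2 to 23 (Sox6 set) when a replicate was left out, and were 25 and 34 with no filter for the last 2 sets.

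The difference in share of members, -0.0672 percentage points of kept barcodes, was 1.66 points of bipolar barcodes, 0.00087 points with at least 4 rule genes, and -0.465 to 0.658 when a replicate was left out. Of 1644 values for 79 single genes, 1443 kept direction and side of the threshold, 77 lost and 88 gained a call, and 36 reversed, none of them among the 16. The reversed log2 values were as follows. When a replicate was left out, Egr1 ran from -1.27 to 0.48, Ddit3 from -0.63 to 0.20, Epha7 from -0.87 to 0.0092, Igf1r from -0.064 to 0.30, Tgfb2 from -0.056 to 0.25, Fos from -0.51 to 1.07 and Pcp4l1 from -0.16 to 0.24. With a sex term Epha7 was at 0.25, Pcdh7 at 0.12, Gria2 at 0.099, Hsp90aa1 at -0.18, Fos at -0.48 and Sag at -0.054. With the replicate block Egr1 was at 0.022. With replicates 2 and 3 alone Ddit3 was at 0.33, H2-D1 at -0.24 and Igf1r at -0.024. With at least 2 rule genes and 3 bipolar genes Pcp2 was at 0.36 and Pcp4l1 at -0.12, and with at least 4 rule genes Epha7 was at 0.15 and Igf1r at -0.015. With no upper limit Meis2 was at 0.10, Egr1 at 0.25 and Pde4b at 0.14. After thinning Tgfb2 was at -0.15 and Pcp4l1 at -0.032. In members with Grm6 or Isl1 Tgfb2 was at -0.18, Pcp4l1 at -0.035 and Sag at -0.0092, and in the others Prdx1 was at -0.076 and Pcp4l1 at -0.098. Without the rod transcript cluster Sag was at -0.32. The causes were not tested.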

Other observations

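A pair of gene groups was added after values were seen, and none of their genes was called in the unblocked test. Of 80 ribosomal protein genes tested, 79 had a log2 fold change above 0 in OIR members, with a median of 0.36 and 50 genes whose OIR values all lay above the controls, which held for 9.63% of all genes tested. All 13 mitochondrially encoded genes lay below 0, with a median of -0.80 and 3 genes whose OIR values all lay below the controls, which held for 6.89% of all genes tested. Median mitochondrial shares per member were 6.28, 2.79 and 2.42% in OIR and 7.56, 6.11 and 2.77% in controls, with overlap. Scg2, a secretory granule protein chosen here after its values were seen, was at 1656, 1767 and 1807 CPM in OIR and 3133, 3073 and 2969 CPM in controls (log2 fold change -0.84, edgeR adjusted p = 0.0529, 0.000508 with the replicate block and 0.0338 without the members with Gad1, Gad2 or Slc32a1).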
